A study of Mus musculus with 5 samples.

Results

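The 4 medulloblastomas described here are those whose sample titles carry the letter V (V7 and V3) or the letter P (P5 and P7), out of 5 tumours in the series. The sources used here do not say what the letters stand for, so V and P are names only. All 4 were end-stage brain tumours with the SmoA2 transgene, which encodes a constitutively active Smoothened, the membrane protein that passes on the hedgehog signal. V7 and P5 were MyoD+/+;SmoA2 and V3 and P7 were MyoD+/-;SmoA2, where MyoD is the myogenic transcription factor gene Myod1. Each letter therefore holds 1 tumour of each genotype. The fifth tumour, also MyoD+/+;SmoA2, bears the letters AI and entered only the normalization, the detection filter and the choice of probes. Strain, sex, age and treatment are not stated in the labels, and no tumour-free cerebellum was compared. In the published SmoA2 model Neurod2 regulatory sequence drives the transgene in granule neuron precursors, but the labels name no promoter. RNA of each tumour was hybridised to 1 Illumina bead array. The labels do not say whether the tumours came from separate mice, so the p-values below cover only how far these 4 samples differ, which may be technical in part.

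Medulloblastoma of the hedgehog type arises from granule neuron precursors of the cerebellum. Hedgehog ligand relieves the inhibition of Smoothened by Ptch1, Gli factors then switch on genes such as Ccnd1 and Ccnd2, and the precursors go on dividing until they leave the cell cycle and mature into granule neurons with glutamatergic synapses. Neurons that are depolarised switch on immediate early genes such as Fos, Egr1 and Arc within minutes through transcription factors already present, among them CREB and SRF, and later genes such as Bdnf follow. Immediate early genes also respond to growth factors and to stress, in many cell types.

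The tumours carried the markers of their lineage. The cerebellar transcription factor genes Zic1, Zic2 and Barhl1, the neurogenic factor gene Neurod1 and the neuronal splicing factor gene Rbfox3 were detected on 4 of 4 arrays. The granule lineage gene Pax6 was detected on 0 of 4, as were Atoh1, Gli1 and Mycn, and no probe was annotated to Mki67. Failure to detect a gene can lie with the probe and does not show absence. The median signal ran from 133.6 in V7 to 148.1 in P5, and 37.0% (V7) to 39.9% (P7) of the 45281 probes were detected. V7 was the lowest on both measures. The next lowest of the tumours compared were V3 in signal, at 145.3, and P5 in probes detected, at 38.7%. Whether this has a part in the levels of V7 was not tested. V3 differed from the other 3 in its sex-linked transcripts. The X-inactivation transcript Xist stood at 4.57 in V7, 11.05 in V3, 4.61 in P5 and 4.64 in P7, and the Y-linked gene Eif2s3y at 8.12 in V7, 4.42 in V3, 7.73 in P5 and 7.83 in P7. Their differences between the letters therefore came from V3 alone.

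Levels are log2 intensities after background correction and quantile normalization, and a difference is the mean of P5 and P7 minus the mean of V7 and V3, with its standard error (SE) from a limma fit over 10474 detected genes. A difference of 1 is 2-fold. An offset of 16 was added before logs were taken, so differences of dim genes are understated. Genes higher in P have positive differences. Where V is higher the size is given with the words.

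The 2 P tumours resembled each other most, and V7 stood farthest from the rest. Across all genes tested, P5 and P7 had a Pearson correlation of 0.984, with 126 genes more than 1 log2 unit apart. V7 and V3 had a correlation of 0.976 with 281 such genes, while V3 and P7 had 0.980 with 212. V3 was thus closer to P7 than to V7. The pairs of V7 with P5 and with P7 were the widest apart, at 531 and 478 genes. Genes are not independent of each other, so these correlations describe the arrays and carry no p.

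Letter was the largest of the 3 ways in which the 4 arrays can be split with 2 on each side. Summed over genes, 47.8% of the variation among the 4 arrays lay between the letters, 29.3% between the genotypes and 22.9% in what was left. By gene, letter was the largest term in 42.2% of genes and genotype in 34.3%. The letter difference can be read once in each genotype, as P5 minus V7 and as P7 minus V3, which share no array. Across genes these differences had a Pearson correlation of 0.365 and a Spearman correlation of 0.287, and 60.2% of genes had the same sign in both. In the scatter of the 2 genotypes' differences most genes lie within a round cloud, and a tail of genes reaches to the upper right.

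**Figure D1:**
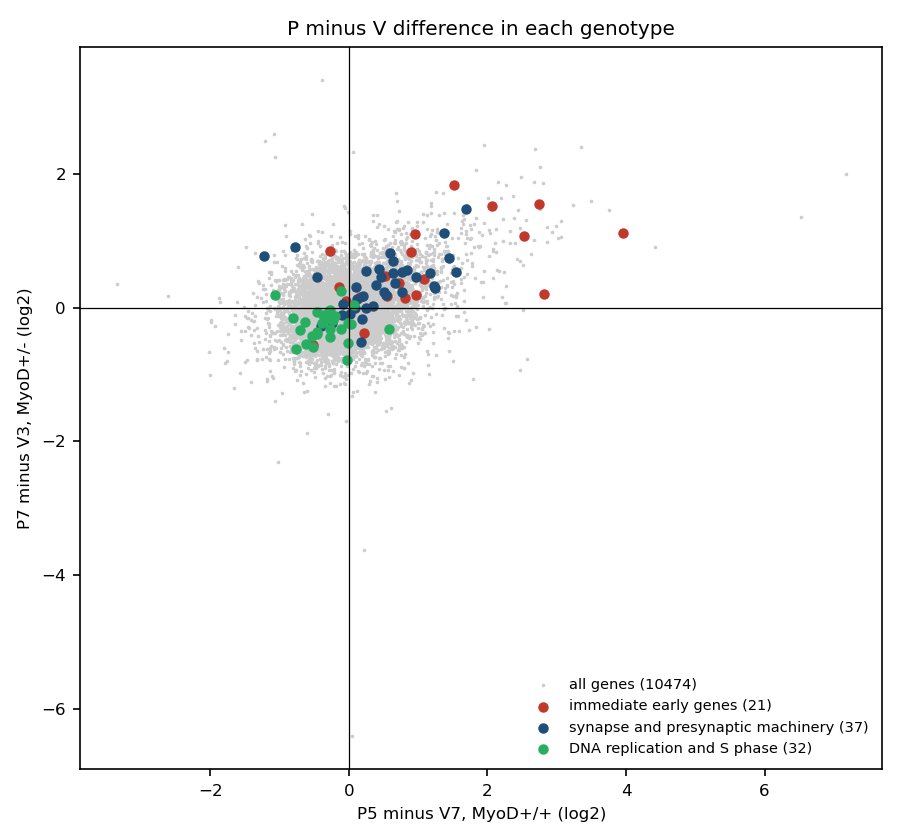
Each point is 1 of 10474 genes, with P5 minus V7 (MyoD+/+) on the x axis and P7 minus V3 (MyoD+/-) on the y axis, both in log2 units; immediate early genes, synapse genes and DNA replication genes are coloured. Most red and blue points lie to the upper right of the centre and most green points to the lower left, close to it, and the correlation over all genes is 0.365.

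A total of 15 genes differed between the letters at a limma adjusted p under 0.05, each of them higher in P, which is 0.143% of the genes tested. Among them were the glycine receptor subunit Glra2, the ATP-gated channel subunit P2rx5, the G protein-coupled receptors Gpr83 and Mas1, the neuronal adhesion molecule Icam5, the calcium-regulated Ras activator Rasgrp1, the exchange factor Ngef, the presynaptic protein beta-synuclein (Sncb), and Arc and Egr1. The others were the solute carrier Slc23a3, the sialidase Neu2, Cracdl, Tmem254a and 1700019D03Rik. No gene passed in the other direction, 0% of those tested, although 458 genes were higher in V at an unadjusted p under 0.05.

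Of the 9 called genes that were above background in all 4 tumours, Rasgrp1 had the largest difference. It stood at 7.61 in V7, 8.53 in V3, 10.96 in P5 and 10.94 in P7, a difference of 2.88 (SE 0.30) or 7.37-fold (adjusted p = 0.0324). The P tumours were 0.027 apart while V7 lay 0.91 below V3. A dimmer probe of Rasgrp1 gave 1.07, of the same sign, so its size depends on the probe. Ngef, which acts downstream of ephrin receptors on the axon's cytoskeleton, had the same order, at 6.82 in V7, 7.46 in V3, 9.62 in P5 and 9.33 in P7 (difference 2.33 (SE 0.26), adjusted p = 0.0381). Glra2 stood at 5.89 in V7, 6.10 in V3, 8.04 in P5 and 7.98 in P7, and here the tumours of each letter were close to each other (difference 2.01 (SE 0.20), adjusted p = 0.0314). Sncb differed 3.00-fold and is the one of the 15 that belongs to the synapse list. Its level was 8.78 in V7, 8.94 in V3, 10.46 in P5 and 10.42 in P7.

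For 6 of the 15 the V side was at or near background. Slc23a3, which had the smallest p, stood at 4.59 in V7, 4.63 in V3, 7.27 in P5 and 7.01 in P7 and was not above background in either V tumour. Its level in P was at least 3.67-fold higher (adjusted p = 0.0314), a bound set by the lowest detected level on each array. Icam5, Mas1 and Arc were likewise above background in both P tumours and in neither V tumour, and were at least 3.38-fold, 3.33-fold and 2.32-fold higher in P. Among the tumours compared, Slc23a3, Icam5, Mas1 and Arc thus met the detection filter only through the letter where they were high. With no detection filter, 0 of the 15 kept their call. Gpr83 and P2rx5 were detected in 1 V tumour and in both P tumours. The other 9 were above background in all 4 tumours.

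The count of 15 rests on few arrays and moves with them. With genotype as a block, which leaves 1 residual degree of freedom, limma called 0 genes (smallest adjusted p 0.0698), with 753 genes higher in P (7.19%) and 596 higher in V (5.69%) at an unadjusted p under 0.05. Without P5, 3 genes were higher in P, 2 of them among the 15. Without V7 there were 112 genes higher in P and 22 higher in V, and without V3 there were 330 and 140. Without P7 there were 28 and 2. All 15 differences kept their sign in each of the 16 other settings run. Without background correction they ran from 0.56 to 2.42, against 1.58 to 2.88 with it, and 13 of the 15 kept their call there and with the authors' processed values, Arc and Mas1 being the exceptions. With the arrays scaled to a common median in place of quantile normalization, the median difference over all genes moved from -0.037 to 0.13, and 264 genes were higher in P and 16 higher in V. The share of genes at an unadjusted p under 0.05 that were higher in P was 59.4% with quantile normalization and 89.3% with median scaling. Directions of whole lists are therefore also given relative to the median of all genes.

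**Figure D2:**
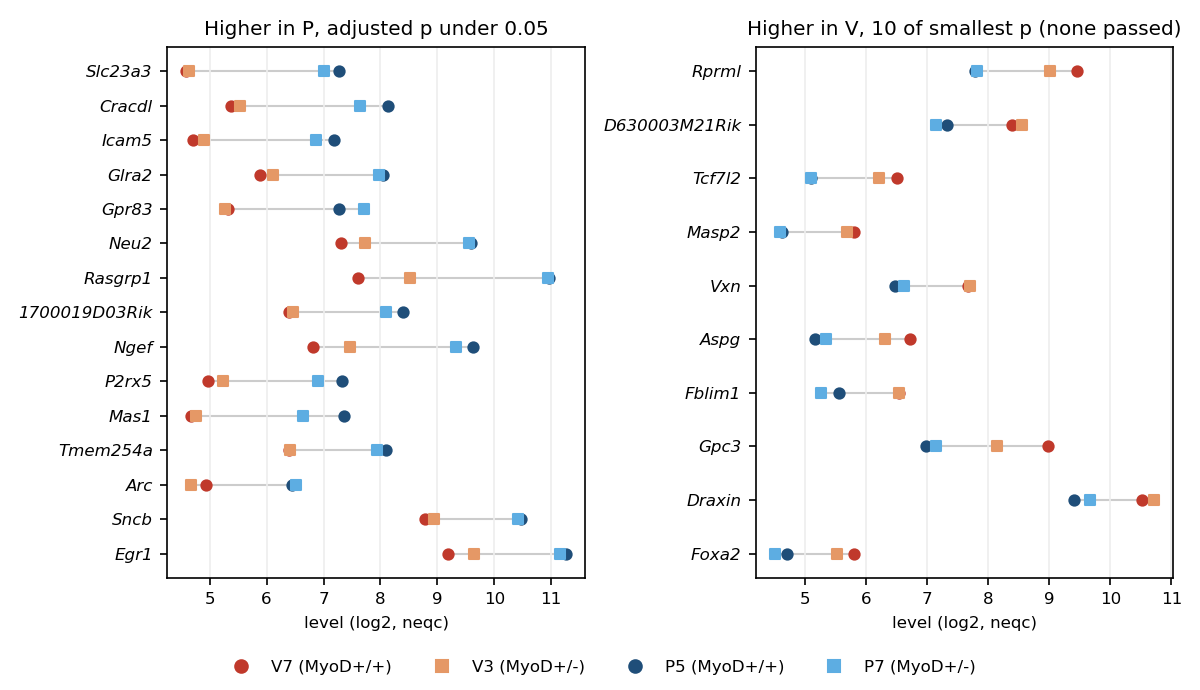
Log2 levels of the 15 genes higher in P at an adjusted p under 0.05 (left) and of the 10 genes of smallest p among those higher in V, none of which passed (right), with a point for each tumour. On the left both P tumours lie to the right of both V tumours in each gene, with gaps within a letter of at most 0.91; on the right the order is turned.

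With no adjustment, 670 genes were higher in P (6.4%) and 458 higher in V (4.37%) at p under 0.05, where 523.7 in all would be called if no gene differed. Both P tumours lay above both V tumours in 18.7% of genes, and both V tumours above both P tumours in 23.4%. The P mean was above the V mean in 45% of genes and below it in 55%. Counts for the gene lists below are read against these shares. The median difference over all genes was 0.20 in size with a median SE of 0.21, and the 95% interval lay within 1 log2 unit of 0 for 82.2% of genes.

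Most immediate early genes tested had higher levels in P, and the 2 that passed the test, Arc and Egr1, are among the most used markers of neuronal activity. Of 33 on the list, 32 had a probe and 21 were tested, the other 11 with a probe being detected on 0 of the 4 arrays. The P mean was above the V mean in 18 of the 21, against 45% of all genes, and both P tumours lay above both V tumours in 15, against 18.7%. These counts include Arc and Fosb, which were above background in both P tumours and in neither V tumour. Among the tumours compared, Arc and Fosb thus met the detection filter only through P. At an unadjusted p under 0.05, 11 were higher in P (6.4% of all genes) and 1, Zfp36, named after its values were seen, was higher in V. The median difference was 0.54, against -0.037 over all genes, and was 0.81 in MyoD+/+ and 0.37 in MyoD+/-. Without V7 the median was 0.61, without background correction 0.29, and over all members with a probe, with no detection filter, 0.15. With median scaling, 19 of the 21 were higher in P, and the median relative to all genes was 0.61, against 0.58 with quantile normalization.

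Egr1 and Egr3, zinc finger transcription factors of the same family, had large differences. Egr1 stood at 9.19 in V7, 9.64 in V3, 11.26 in P5 and 11.16 in P7, a difference of 1.79 (SE 0.22) or 3.47-fold (adjusted p = 0.0473), and the letters were separated by more than 1 log2 unit. Egr3 stood at 4.71 in V7, 5.56 in V3, 7.46 in P5 and 7.11 in P7, below detection in 1 V tumour, and did not pass (difference 2.15 (SE 0.30), adjusted p = 0.0696). Egr4, named after its values were seen, had the largest measured difference on the list at 2.54 (SE 0.67). Its levels of 5.62 in V7, 8.08 in V3, 9.58 in P5 and 9.20 in P7 put V3 nearer to the P tumours than to V7. The tumours of the letters overlapped for Egr2, the remaining member of the family.

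The AP-1 factor genes were mixed. Fos stood at 6.61 in V7, 7.61 in V3, 9.14 in P5 and 8.69 in P7, a difference of 1.81 (SE 0.34) or 3.50-fold, with the letters apart and V7 lowest (adjusted p = 0.116). Fosb was not above background in either V tumour and stood at 4.73 in V7, 4.70 in V3, 5.63 in P5 and 5.53 in P7, at least 1.25-fold higher in P (adjusted p = 0.158). Junb and Fosl2, named after their values were seen, had smaller differences of 0.49 and 0.36. The Fos genes were thus separated by letter, while Jun and Jund overlapped.

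Arc, whose protein controls the removal of AMPA receptors from synapses, stood at 4.93 in V7, 4.68 in V3, 6.45 in P5 and 6.52 in P7, above background in both P tumours and in neither V tumour, at least 2.32-fold higher in P (adjusted p = 0.0405). Its call was lost without background correction (adjusted p = 0.0779) and with the authors' processed values (adjusted p = 0.0776), and its limma adjusted p ran from 4.37e-05 to 0.161 over all the settings run. Dusp1, a phosphatase that switches off MAP kinases, stood at 9.99 in V7, 10.15 in V3, 10.95 in P5 and 11.26 in P7. Its difference was 1.03 (SE 0.21), and it did not pass (adjusted p = 0.145). The neuronal activity factor gene Npas4, named after its values were seen, stood at 4.75 in V7, 6.22 in V3, 7.56 in P5 and 6.43 in P7, with V3 and P7 close to each other. Zfp36, which encodes an mRNA-destabilising protein, was the exception among genes of small p, at 6.61 in V7, 6.78 in V3, 6.10 in P5 and 6.22 in P7, higher in V by 0.54.

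**Figure D3:**
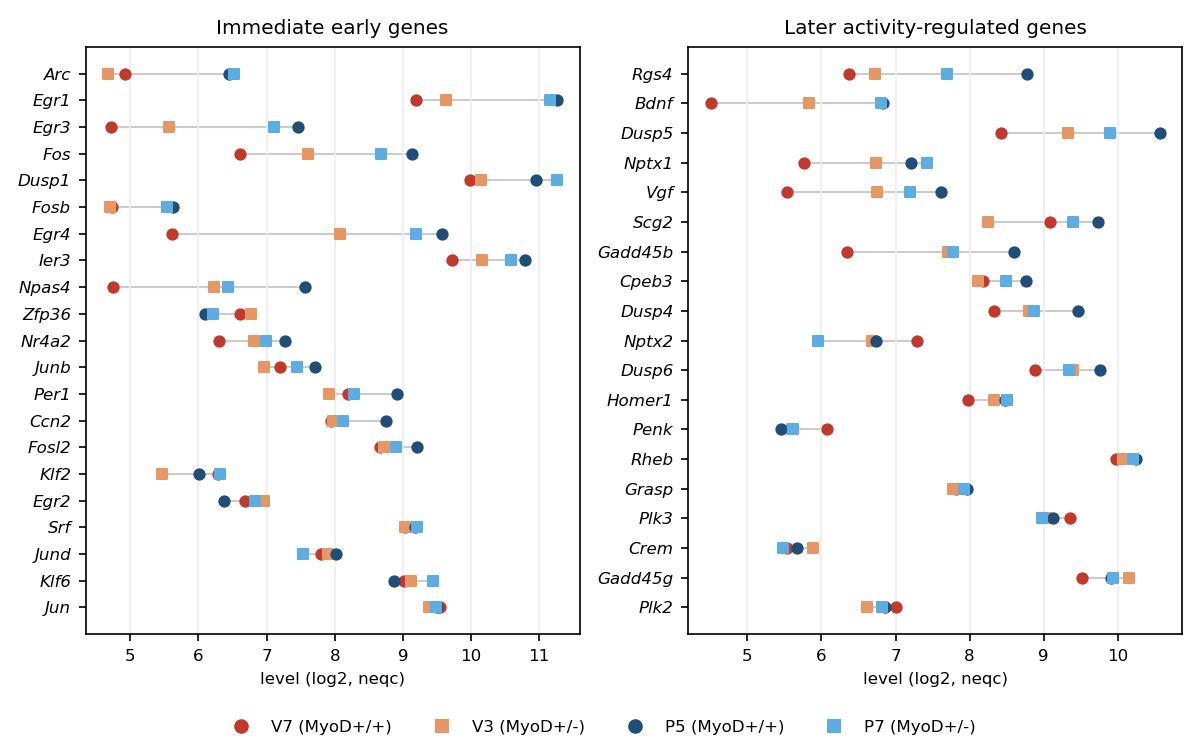
Log2 level of each tested immediate early gene (left, 21 genes) and later activity-regulated gene (right, 19 genes) in the 4 tumours, ordered by unadjusted p from the top. Blue points (P) lie to the right of red and orange points (V) in the upper rows, V7 is the lowest tumour in several of them, and the points overlap in the lower rows.

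The promoters of Fos, Dusp1 and Dusp5 are shown because these activity genes were higher in both P tumours and their windows hold motif matches. They were picked after the values were seen. Each window runs from 250 bases before to 50 after the gene start, 5′ to 3′ on the gene's strand, from RefSeq on GRCm38.p6. Fos lies at chr12:85473640-85473939 (+), Dusp1 at chr17:26508423-26508722 (-) and Dusp5 at chr19:53528895-53529194 (+). Capitals mark matches to the cAMP response element TGACGTCA, to its core TGACG, to the CArG box bound by SRF, or to TATAAA, each searched on both strands.
Fos: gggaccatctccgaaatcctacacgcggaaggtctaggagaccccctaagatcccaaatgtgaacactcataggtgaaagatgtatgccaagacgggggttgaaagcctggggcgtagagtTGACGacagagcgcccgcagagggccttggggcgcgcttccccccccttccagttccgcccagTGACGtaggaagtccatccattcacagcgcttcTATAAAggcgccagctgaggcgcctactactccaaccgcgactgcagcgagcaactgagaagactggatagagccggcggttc
Dusp1: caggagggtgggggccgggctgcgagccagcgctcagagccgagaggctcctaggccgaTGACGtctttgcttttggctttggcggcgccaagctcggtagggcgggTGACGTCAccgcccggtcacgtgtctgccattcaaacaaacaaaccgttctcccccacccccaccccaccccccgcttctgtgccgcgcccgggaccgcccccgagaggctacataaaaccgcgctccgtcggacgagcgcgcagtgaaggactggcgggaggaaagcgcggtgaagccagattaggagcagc
Dusp5: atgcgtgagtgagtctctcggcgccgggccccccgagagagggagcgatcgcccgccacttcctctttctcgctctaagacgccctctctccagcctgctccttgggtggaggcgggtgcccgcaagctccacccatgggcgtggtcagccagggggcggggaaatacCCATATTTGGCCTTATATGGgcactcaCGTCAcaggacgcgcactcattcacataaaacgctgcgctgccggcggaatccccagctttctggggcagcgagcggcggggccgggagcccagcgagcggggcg

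The Fos window holds the core 2 times and TATAAA 1 time. The Dusp1 window holds the full element 1 time and the core 3 times, of which the full element, being the same on both strands, supplies all but 1. The Dusp5 window holds 2 adjoining CArG boxes and the core 1 time, on the other strand. Of the 21 immediate early genes tested, 17 had a promoter window in the reference, and 11 of these (64.7%) held the core, against 34.9% of the 8479 tested genes with a window. The CArG box was in 3 (17.6%), against 1.85%, the full element in 1 (5.88%), against 3.52%, and TATAAA in 4 (23.5%), against 9.36%. Arc, Egr1 and Egr3 had no window in the reference, so these shares leave them out. Among all 32851 promoter windows of the reference the core was in 20.8%, the CArG box in 1.63%, the full element in 1.79% and TATAAA in 13.6%. Of the 15 genes past the threshold, 12 had a window and 3 of these (25.0%) held the core, below the share of all tested genes. These are matches of letters and do not show binding.

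Later activity-regulated genes also mostly had higher levels in P. Of 29 listed, 28 had a probe and 19 were tested. The P mean was above the V mean in 15, against 45% of all genes. Both P tumours lay above both V tumours in 12, against 18.7%. At an unadjusted p under 0.05, 8 were higher in P (6.4% of all genes), while 0 passed the adjusted threshold. The median difference was 0.41, made up of 0.58 in MyoD+/+ and 0.14 in MyoD+/-, and was 0.22 without V7, 0.35 without background correction and 0.18 with no detection filter. Rgs4, which shortens G protein signalling, stood at 6.38 in V7, 6.73 in V3, 8.77 in P5 and 7.70 in P7 (difference 1.68 (SE 0.35), adjusted p = 0.148). The growth factor gene Bdnf stood at 4.50 in V7, 5.83 in V3, 6.83 in P5 and 6.80 in P7, not above background in V7, a difference of 1.65 (SE 0.39) (adjusted p = 0.187). Both genes had V7 lowest and both P tumours above both V tumours.

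Dusp5, a nuclear phosphatase of ERK, stood at 8.42 in V7, 9.32 in V3, 10.56 in P5 and 9.90 in P7, a difference of 1.36 (SE 0.35) (adjusted p = 0.225). The neuropeptide precursor Vgf stood at 5.53 in V7, 6.75 in V3, 7.61 in P5 and 7.20 in P7, so that V3 lay closer to P7 than to V7. The neuronal pentraxin Nptx1, which clusters AMPA receptors, differed by 1.06 (SE 0.32), and the secretogranin Scg2 by 0.90 (SE 0.30). The 4 members with a higher V mean, named after their values were seen, were Nptx2 (by 0.64), Penk (by 0.30), Plk3 and Crem. The list therefore held members of both directions, and the 2 neuronal pentraxins had differences of opposite sign.

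Other cell types moved with the letters too, and these values stand beside the activity, synapse and proliferation genes alike. The summed level of 14 choroid plexus and ependyma genes (log2 of the sum of linear levels) was 12.12 and 12.35 in V and 13.82 and 13.36 in P. Such a sum is weighted to bright genes, and in P it rests largely on the choroid plexus gene Ttr. Ttr stood at 5.96 in V7, 10.39 in V3, 13.13 in P5 and 12.40 in P7. The size of that shift is therefore mostly that of 1 gene. By gene, 13 of the 14 had the higher mean in P, with a median difference of 0.44. Among the tumours compared, some of these genes met the detection filter only through P. The summed level of 14 oligodendrocyte precursor genes was 12.61 and 12.42 in V and 11.99 and 12.03 in P. Whether either cell type has a part in the other differences was not tested. In bulk tumour RNA, fewer cells of a type and less RNA per cell cannot be told apart.

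Synapse genes mostly had higher levels in P. Of 54 listed, 46 had a probe and 37 were tested. The P mean was above the V mean in 30, against 45% of all genes, and both P tumours lay above both V tumours in 22 (18.7%). At an unadjusted p under 0.05, 16 were higher in P (6.4% of all genes) against 0 higher in V. Sncb alone passed the adjusted threshold. The median difference was 0.37, at 0.43 in MyoD+/+ and 0.34 in MyoD+/-, and was 0.41 without V7 and 0.21 with no detection filter. Relative to all genes it was 0.41, and 0.45 with median scaling.

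The neuronal enolase Eno2, a glycolytic enzyme, stood at 11.22 in V7, 11.15 in V3, 12.59 in P5 and 12.27 in P7 (difference 1.24 (SE 0.21), adjusted p = 0.0839). Nrxn3, a presynaptic adhesion molecule, stood at 7.22 in V7, 7.56 in V3, 8.66 in P5 and 8.31 in P7 (difference 1.10 (SE 0.23), adjusted p = 0.148), with its other 2 probes at 0.48 and 0.25. Syt1, the calcium sensor of transmitter release, stood at 11.08 in V7, 11.89 in V3, 12.63 in P5 and 12.43 in P7, and its other probes gave 1.13 and 1.25. In each of these genes both P tumours lay above both V tumours. Olfm1 differed by 0.84 (SE 0.23) and the neurofilament gene Nefm by 0.70 (SE 0.21). The AMPA receptor subunit genes Gria1, Gria2 and Gria4, named after their values were seen, had overlapping letters.

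**Figure D4:**
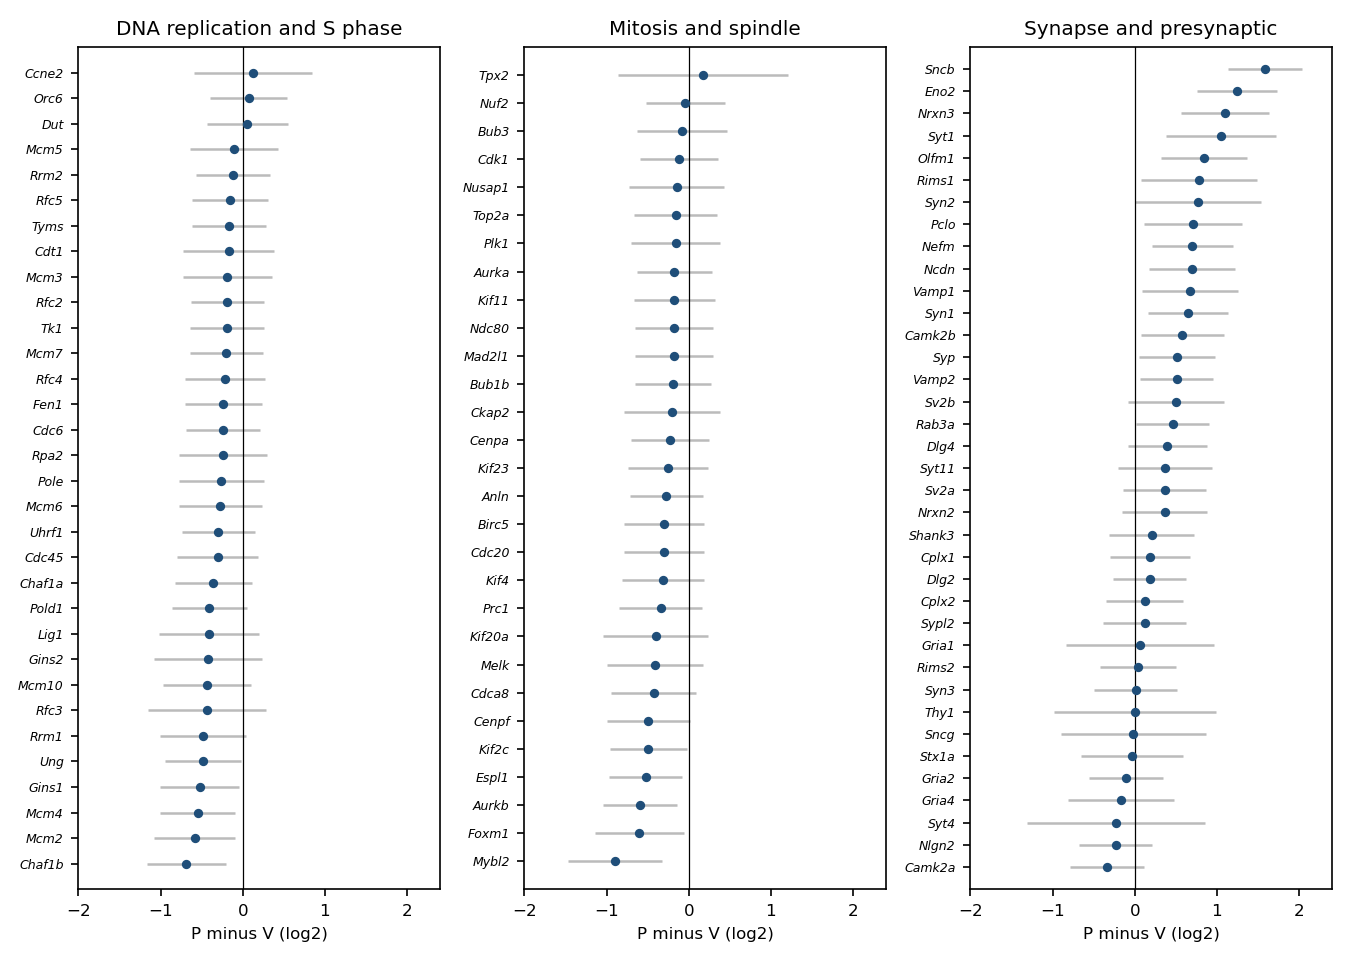
Difference P minus V (log2) of each tested gene of the DNA replication (32), mitosis (29) and synapse (37) lists, as points with 95% intervals of the limma fit. Points of the left and middle panels lie mostly left of 0 with intervals that cross it, and points of the right panel mostly right of 0.

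Ion channel genes of neurons were split. Of 25 tested, the P mean was above in 18, against 45% of all genes. At an unadjusted p under 0.05, 6 were higher in P (6.4% of all genes) and 0 higher in V. The median was 0.16, and it was 0.021 without V3 and 0.25 without V7. The sodium channel gene Scn2a stood at 6.94 in V7, 6.98 in V3, 8.24 in P5 and 8.10 in P7, with tumours of each letter close together (difference 1.21 (SE 0.19), adjusted p = 0.0839), and its other probes had the same sign. Kcnn1, a calcium-gated potassium channel, differed by 1.40 (SE 0.27), and Kcna2, an axonal potassium channel, by 1.14 (SE 0.37). Kcna2 levels were 5.75 in V7, 6.92 in V3, 7.65 in P5 and 7.30 in P7, again with V7 lowest. Kcnma1 and Kcnq3, named after their values were seen, were higher in V by 0.53 and 0.51.

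Genes of the postmitotic granule neuron included some of the widest gaps, and others that were level. Of 39 tested, the P mean was above in 29, against 45% of all genes. Both P tumours lay above both V tumours in 17 (18.7% of all genes) and both V tumours above both P tumours in 8 (23.4%). At an unadjusted p under 0.05, 11 were higher in P (6.4% of all genes) and 2 higher in V (4.37%), and 0 passed the adjusted threshold. The median was 0.27, at 0.23 in MyoD+/+ and 0.22 in MyoD+/-, and was 0.12 without V7 and 0.15 without P7.

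Slc17a7, the vesicular glutamate transporter of mature granule neurons, stood at 8.14 in V7, 9.56 in V3, 11.07 in P5 and 10.69 in P7, a difference of 2.03 (SE 0.43) or 4.08-fold (adjusted p = 0.148). V7 was lowest, V3 intermediate and the P tumours highest. Grm4, the metabotropic glutamate receptor of parallel fibres, had the same order at 8.77 in V7, 9.97 in V3, 10.94 in P5 and 10.52 in P7 (difference 1.36 (SE 0.38), adjusted p = 0.265). Gabrd and Gabra6, which encode subunits of the extrasynaptic GABA receptor of granule cells, differed in detection: Gabrd stood at 8.62 in V7, 9.23 in V3, 10.11 in P5 and 10.01 in P7. Gabra6, a marker of the most mature cells, stood at 4.73 in V7, 4.94 in V3, 5.36 in P5 and 6.01 in P7 and was not above background in either V tumour. Rbfox3, also a marker of mature granule neurons, stood at 12.19 in V7, 12.81 in V3, 12.63 in P5 and 12.91 in P7. Its letters overlapped (difference 0.27 (SE 0.26)).

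The transcription factor gene Etv1, the synaptic organiser Cbln1 and the release regulator Cadps2 differed by 1.09 (SE 0.24), 0.79 (SE 0.21) and 0.78 (SE 0.21), with adjusted p of 0.158, 0.241 and 0.262. In all 3 both P tumours lay above both V tumours. The 2 members higher in V at an unadjusted p under 0.05, named after their values were seen, were the nuclear factor gene Nfia (0.59) and the semaphorin Sema6a, which acts in granule cell migration (0.50). The dendritic cytoskeleton gene Map2, also named after its values were seen, was level at 11.34 in V7, 11.47 in V3, 11.34 in P5 and 11.47 in P7. Neurod1 stood at 6.52 in V7, 6.47 in V3, 6.42 in P5 and 7.45 in P7, where P7 alone was high.

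Most proliferation genes had lower levels in P, by small amounts. In the DNA replication list, 32 of 40 genes were tested and the V mean was above the P mean in 29, against 55% of all genes. Both V tumours lay above both P tumours in 22 (23.4% of all genes), and 5 were higher in V at an unadjusted p under 0.05 (4.37%). The median difference was -0.25, at -0.29 in MyoD+/+ and -0.22 in MyoD+/-. In the mitosis list, 29 of 40 were tested, the V mean was above in 28, both V tumours lay above both P tumours in 18, and 5 were higher in V at an unadjusted p under 0.05. Its median was -0.25, at -0.31 in MyoD+/+ and -0.19 in MyoD+/-. In both lists 0 genes passed the adjusted threshold.

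The replicative helicase subunits Mcm2 and Mcm4 stood at 10.33 in V7, 10.05 in V3, 9.71 in P5 and 9.50 in P7 and at 11.23 in V7, 11.41 in V3, 10.71 in P5 and 10.82 in P7. V exceeded P by 0.58 (SE 0.21) and 0.55 (SE 0.20), with adjusted p of 0.377 and 0.377. The chromatin assembly factor subunit Chaf1b stood at 9.75 in V7, 9.89 in V3, 8.99 in P5 and 9.27 in P7, higher in V by 0.69 (adjusted p = 0.293). In these genes the tumours of each letter were close and the letters did not overlap. The S phase transcription factor Mybl2 had the widest gap of the mitosis list, at 9.47 in V7, 9.22 in V3, 8.18 in P5 and 8.71 in P7, higher in V by 0.90 (adjusted p = 0.247), and its other probe gave 0.55. Aurkb, the kinase that corrects chromosome attachment, stood at 9.07 in V7, 9.16 in V3, 8.57 in P5 and 8.48 in P7, higher in V by 0.59. Foxm1, which drives mitotic genes, was higher in V by 0.60, Espl1 (separase) by 0.52 and Kif2c, a microtubule-depolymerising kinesin, by 0.49.

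The size of these shifts depends on the scale, while the medians stayed below 0 in each of the 16 other settings. With median scaling 22 of the 32 replication genes and 18 of the 29 mitosis genes still had the higher mean in V, and the medians were -0.068 and -0.062. Relative to the median of all genes the lists stood at -0.22 and -0.21 with quantile normalization and at -0.20 and -0.19 with median scaling. The topoisomerase gene Top2a, a marker of dividing cells, stood at 9.77 in V7, 10.16 in V3, 9.78 in P5 and 9.83 in P7, and its letters overlapped. On a dimmer Top2a probe they did not, at 7.88 in V7, 7.60 in V3, 6.94 in P5 and 7.51 in P7 (difference -0.52). The 4 genes with a higher P mean, named after their values were seen, were Ccne2, Orc6, Dut and Tpx2, and the letters overlapped for each.

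Among cell cycle inhibitors the widest gap was that of the p53 target Cdkn1a (p21). It stood at 8.37 in V7, 9.94 in V3, 10.89 in P5 and 10.59 in P7, a P minus V difference of 1.58 (SE 0.46) or 2.99-fold that did not pass (adjusted p = 0.276), with V7 well below the other 3 tumours. Its other probes gave 1.29 and 1.97. Cdkn2b differed by 0.81 (SE 0.32), while Rbl1 and Rb1, of the retinoblastoma family, were higher in V by 0.67 and 0.27. Of 11 inhibitors tested, the P mean was above in 4 and the V mean in 7, against 55% of all genes. The median was -0.058, and it ran from -0.18 without V3 to 0.034 without P5. The wider list of 20 p53 target and apoptosis genes had a median of -0.074, or -0.15 without V7. At an unadjusted p under 0.05, 2 members were higher in P (6.4% of all genes), Cdkn1a and the survival gene Bcl2l1 (0.56 (SE 0.20)).

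Precursor and hedgehog genes leaned towards V. Of 20 granule neuron precursor genes tested, the V mean was above in 14, against 55% of all genes. The median was -0.14, which was -0.24 without V7 and turned to 0.036 with median scaling. Relative to all genes it was -0.10 and -0.093. Barhl1, a homeobox gene of the granule lineage, stood at 10.87 in V7, 10.01 in V3, 9.49 in P5 and 9.80 in P7, higher in V by 0.79 with both V tumours above both P tumours (adjusted p = 0.410). The microfibril-associated gene Mfap4 was higher in V by 0.54. Zic1 differed by 0.21 (SE 0.19). The Notch effectors Hes1 and Hes5 differed in opposite directions: Hes1 stood at 6.67 in V7, 7.65 in V3, 6.37 in P5 and 6.06 in P7, higher in V by 0.94, and Hes5 at 5.61 in V7, 5.65 in V3, 6.21 in P5 and 6.51 in P7, higher in P by 0.73. A dimmer probe of Hes5 gave 0.11, with overlapping letters.

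Of 14 hedgehog pathway and target genes tested, the V mean was above in 10, against 55% of all genes. Both V tumours lay above both P tumours in 9 (23.4% of all genes). The median was -0.37, or -0.24 without V3 and -0.18 without P5. Without the detection filter that median was -0.018 over all members with a probe. Smo itself, the gene of which SmoA2 is an activated form, stood at 9.91 in V7, 10.17 in V3, 10.75 in P5 and 10.78 in P7, higher in P by 0.72 (adjusted p = 0.264). Of its other probes 1 gave 0.57 and 1 gave -0.41, so its direction depends on the probe. Whether any of them reads the transgene is not stated. Ptch1, both receptor and target, stood at 9.80 in V7, 9.96 in V3, 9.61 in P5 and 9.25 in P7, higher in V by 0.45, with the letters apart and V3 highest. The targets Ccnd1 and Ccnd2 were higher in V by 0.30 and 0.40, and Sox18 by 0.77 (adjusted p = 0.659, 0.595 and 0.355). Cdon, a hedgehog co-receptor, was not above background in either V tumour and was at least 1.19-fold higher in P.

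The Notch list (11 genes tested) and the Wnt list (11 tested) each had the higher mean in V for 8 members, against 55% of all genes. Their medians were -0.32 and -0.30, and -0.29 and -0.26 relative to all genes. The Wnt median was -0.15 without V3 or without background correction and -0.18 without P5, and the Notch median was -0.087 with no detection filter and -0.12 without background correction. Their members of smallest p on the V side were the Notch coactivator Maml1, higher in V by 0.63, and Tcf7l2, described next.

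The genes of smallest p on the V side did not pass, and their adjusted p ran from 0.0832 to 0.130. Rprml, a homologue of the cell cycle arrest gene Reprimo, stood at 9.45 in V7, 9.02 in V3, 7.79 in P5 and 7.81 in P7, higher in V by 1.43. Tcf7l2, the transcription factor that carries Wnt signals to the genome, stood at 6.51 in V7, 6.21 in V3, 5.10 in P5 and 5.10 in P7 and was not above background in either P tumour, so V was at least 2.22-fold higher. Gpc3, a glypican that binds hedgehog and Wnt ligands, stood at 8.98 in V7, 8.15 in V3, 6.97 in P5 and 7.14 in P7, 2.84-fold higher in V, and its other probe had the same direction. In these genes the letters did not overlap, and the P tumours were close to each other for Rprml and Gpc3. For Tcf7l2 both P values lay at background, so their closeness says nothing of the P tumours.

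Draxin, a secreted axon repellent, was higher in V by 1.08 on its brightest probe and by 0.45 on another, while its remaining probe gave 0.39 in favour of P. The complement protease Masp2 and the forkhead factor Foxa2 were detected in both V tumours and neither P tumour, at least 1.45-fold and 1.38-fold higher in V. Vxn, Aspg, Fblim1 and D630003M21Rik were higher in V by 1.13, 1.28, 1.12 and 1.23.

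Choroid plexus genes mostly had higher levels in P. Ttr, the thyroid hormone carrier secreted by choroid plexus, stood at 5.96 in V7, 10.39 in V3, 13.13 in P5 and 12.40 in P7, a difference of 4.59 (SE 1.18) that did not pass, with V7 and V3 themselves 4.42 apart (adjusted p = 0.228). Aqp1, the water channel of choroid epithelium, separated the letters more evenly at 5.88 in V7, 6.10 in V3, 7.30 in P5 and 7.35 in P7 (difference 1.33 (SE 0.20), adjusted p = 0.0802), and its other probes had the same sign. Sostdc1 and Kcne2 were above background in both P tumours and in neither V tumour, at least 1.74-fold and 1.12-fold higher in P. Of 14 genes tested, 13 had the higher mean in P, against 45% of all genes. In 8 both P tumours lay above both V tumours (18.7% of all genes), and 5 were higher in P at an unadjusted p under 0.05 (6.4%). These counts include Sostdc1 and Kcne2, which among the tumours compared met the detection filter only through P. The median was 0.44, or 0.59 without V7. Without each tumour in turn it ran from 0.39 to 0.68 (without P7), and without background correction it was 0.19. The defining marker Folr1 was detected in both P tumours only, and no probe was annotated to Kcnj13.

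Oligodendrocyte precursor genes went the other way. Of 14 tested, 13 had the higher mean in V, against 55% of all genes, and 8 had both V tumours above both P tumours (23.4%). At an unadjusted p under 0.05, 4 were higher in V (4.37% of all genes). The median was -0.44. That median was -0.26 without V7 and -0.21 without background correction. The lineage factor gene Sox10 stood at 8.44 in V7, 8.48 in V3, 7.45 in P5 and 7.83 in P7, higher in V by 0.82 (adjusted p = 0.228), and Olig1 at 11.25 in V7, 11.11 in V3, 10.66 in P5 and 10.65 in P7, higher by 0.52. Matn4 was higher in V by 0.94 on its brightest probe and by 0.16 on the other. Genes of mature myelin had medians of opposite sign in the genotypes, -0.56 in MyoD+/+ and 0.18 in MyoD+/- over 18 genes. The myelin gene Mbp stood at 12.17 in V7, 10.69 in V3, 11.81 in P5 and 10.82 in P7, with the letters interleaved.

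Microglia and macrophage genes leaned to V, with the V mean above in 21 of 28, against 55% of all genes, and a median of -0.19. Without each tumour in turn it ran from -0.39 (without P7) to -0.027 (without P5). It was -0.0021 with median scaling, when 14 genes were on each side. Aif1 stood at 8.48 in V7, 8.56 in V3, 7.83 in P5 and 8.17 in P7, higher in V by 0.52, and the complement gene C1qa by 0.23. The letters overlapped for the marker Csf1r, at 7.12 in V7, 6.61 in V3, 6.71 in P5 and 6.90 in P7 (difference -0.06). The galectin Lgals3 and the Fc receptor chain Fcer1g were higher in V by 0.69 and 0.54. Of the 28, 0 passed the adjusted threshold.

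Fibroblast and meninges genes were mixed, with the P mean above in 12 of 20, against 45% of all genes. Their median was 0.14, which was 0.010 without P5 and 0.20 without V7. At an unadjusted p under 0.05, 5 were higher in P (6.4% of all genes), among them Col6a1, a collagen of the pericellular matrix (2.23-fold), Mgp, which inhibits calcification (2.30-fold), and the meningeal sulphate transporter Slc13a4 (1.76-fold). The collagen gene Col1a2 stood at 5.55 in V7, 5.39 in V3, 5.32 in P5 and 4.99 in P7, near background. Endothelial and mural genes were mixed too: of 24 tested, 16 had the higher mean in P, against 45% of all genes, and 8 in V. The median of 0.13 was 0.015 without P5 and 0.037 without background correction. The endothelial markers Cdh5 and Cldn5 overlapped between the letters, with differences of 0.03 (SE 0.21) and 0.17 (SE 0.22). The 2 members at an unadjusted p under 0.05 were the vascular sialomucin Emcn, at 5.58 in V7, 6.77 in V3, 7.20 in P5 and 7.15 in P7, and Pecam1, higher in P by 0.48. Astrocyte genes were split 13 to 12 with a median of 0.015, or -0.23 without V3 and 0.15 without V7, and Gfap stood at 10.02 in V7, 9.93 in V3, 10.06 in P5 and 10.18 in P7.

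Red blood cell genes were mixed, and the globin genes had opposite signs in the genotypes. Of 7 tested, 5 had the higher mean in P, against 45% of all genes. The median was 0.59, and it was -0.36 without V3 and -0.11 without P7. The alpha-globin gene Hba-a1 stood at 10.51 in V7, 8.59 in V3, 9.44 in P5 and 10.85 in P7, so that P minus V was -1.07 in MyoD+/+ and 2.26 in MyoD+/-. The beta-globin gene Hbb-bt, named after its values were seen, had the same order at 11.01 in V7, 8.50 in V3, 9.93 in P5 and 11.11 in P7. The anion exchanger Slc4a1 of the red cell membrane did separate the letters, at 5.41 in V7, 5.72 in V3, 6.42 in P5 and 6.44 in P7 (difference 0.87 (SE 0.21), adjusted p = 0.181). Tspo2 and the haem synthesis gene Fech had both V tumours above both P tumours near background, with Tspo2 not above background in either P tumour and Fech higher in V by 0.23. The Purkinje cell marker Pcp2 stood at 10.39 in V7, 9.52 in V3, 9.25 in P5 and 10.06 in P7, also with opposite signs in the genotypes. Calb1 and Car8, which mark the same cells, were detected on 0 of 4 arrays. Among lymphocyte genes 3 were tested and the marker Cd3e was detected on 0 of 4. Neutrophil genes (8 tested) had a median of -0.17, or -0.32 without P5 and -0.086 without P7, with the gelatinase Mmp9 higher in V by 0.64.

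Muscle genes held a few wide gaps, in several of which V7 stood apart. Of 27 contractile and excitation genes tested, the P mean was above in 19, against 45% of all genes. Of these 27, 6 were higher in P at an unadjusted p under 0.05 (6.4% of all genes) and 1 was higher in V (Mb, named after its values were seen). The median was 0.29, or 0.14 without P5, 0.11 without background correction and 0.098 with no detection filter. Skeletal actin Acta1 stood at 5.48 in V7, 6.77 in V3, 8.21 in P5 and 8.33 in P7, a difference of 2.14 (SE 0.39) or 4.42-fold (adjusted p = 0.0972). Trim72, which repairs muscle membranes, stood at 4.61 in V7, 6.75 in V3, 7.37 in P5 and 8.24 in P7, not above background in V7. The fast-muscle troponin Tnnc2, named after its values were seen, stood at 4.92 in V7, 10.58 in V3, 11.45 in P5 and 11.94 in P7. In the last 2 genes V3 lay nearer to the P tumours than to V7.

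The sarcoglycan gene Sgca was close in the V tumours and higher in both P tumours, at 5.13 in V7, 5.40 in V3, 7.02 in P5 and 6.33 in P7 (difference 1.41 (SE 0.27), adjusted p = 0.120), and its other probe gave 1.43. Myod1 itself stood at 6.37 in V7, 6.30 in V3, 7.06 in P5 and 6.66 in P7, so the letters did not overlap, with a difference of 0.53 (SE 0.22) (adjusted p = 0.446). The muscle cadherin Cdh15, which granule neurons also express, was higher in P by 0.77 (SE 0.19). Over 13 myogenic regulators tested the median was 0.032, or 0.18 without V7, with 8 higher in P, against 45% of all genes, and 5 lower.

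Genes of cell state had small but even shifts. Of 34 respiratory chain genes tested, the P mean was above in 32, against 45% of all genes. Both P tumours lay above both V tumours in 22 (18.7% of all genes), and the median was 0.20. Examples were the ATP synthase subunit Atp5a1 at 7.51 in V7, 7.68 in V3, 8.09 in P5 and 8.43 in P7, higher in P by 0.66, and the oxidase subunit Cox7a2, by 0.59. Cytosolic ribosomal protein genes had the V mean above in 27 of 33, against 55% of all genes, with a median of -0.15. The list was led by Rpl12 at 12.95 in V7, 12.80 in V3, 12.13 in P5 and 12.48 in P7. With median scaling all 34 respiratory genes were higher in P and 25 of the 33 ribosomal genes were higher in V. That scaling also moved the median difference over all genes to 0.13. Relative to the median of all genes, the respiratory list stood at 0.24 with quantile normalization and at 0.25 with median scaling. The ribosomal list stood at -0.12 and -0.23. In both lists 0 genes passed the adjusted threshold.

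Hypoxia and glycolysis genes had the P mean above in 20 of 26, against 45% of all genes, and a median of 0.14. The glycolytic enzymes Pfkp and Aldoa had differences of 1.05 (SE 0.22) and 0.93 (SE 0.22). The hypoxia marker Car9 was above background in both P tumours and in neither V tumour, at least 1.42-fold higher in P. Heat shock genes had a median of 0.062, or 0.0022 without V7 and 0.22 without V3, with the small heat shock gene Hspb8 at 0.60 (SE 0.19). Interferon response genes had a median of -0.62 in MyoD+/+ and of 0.23 in MyoD+/-, and without V7 the median over both turned from -0.22 to 0.086. The list medians had the same sign in both genotypes for the activity, synapse, granule neuron, proliferation, Notch, Wnt, hedgehog and choroid lists, and opposite signs for the red blood cell, myelin, interferon, astrocyte, Purkinje, endothelial, lymphocyte and cell cycle inhibitor lists.

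**Figure D5:**
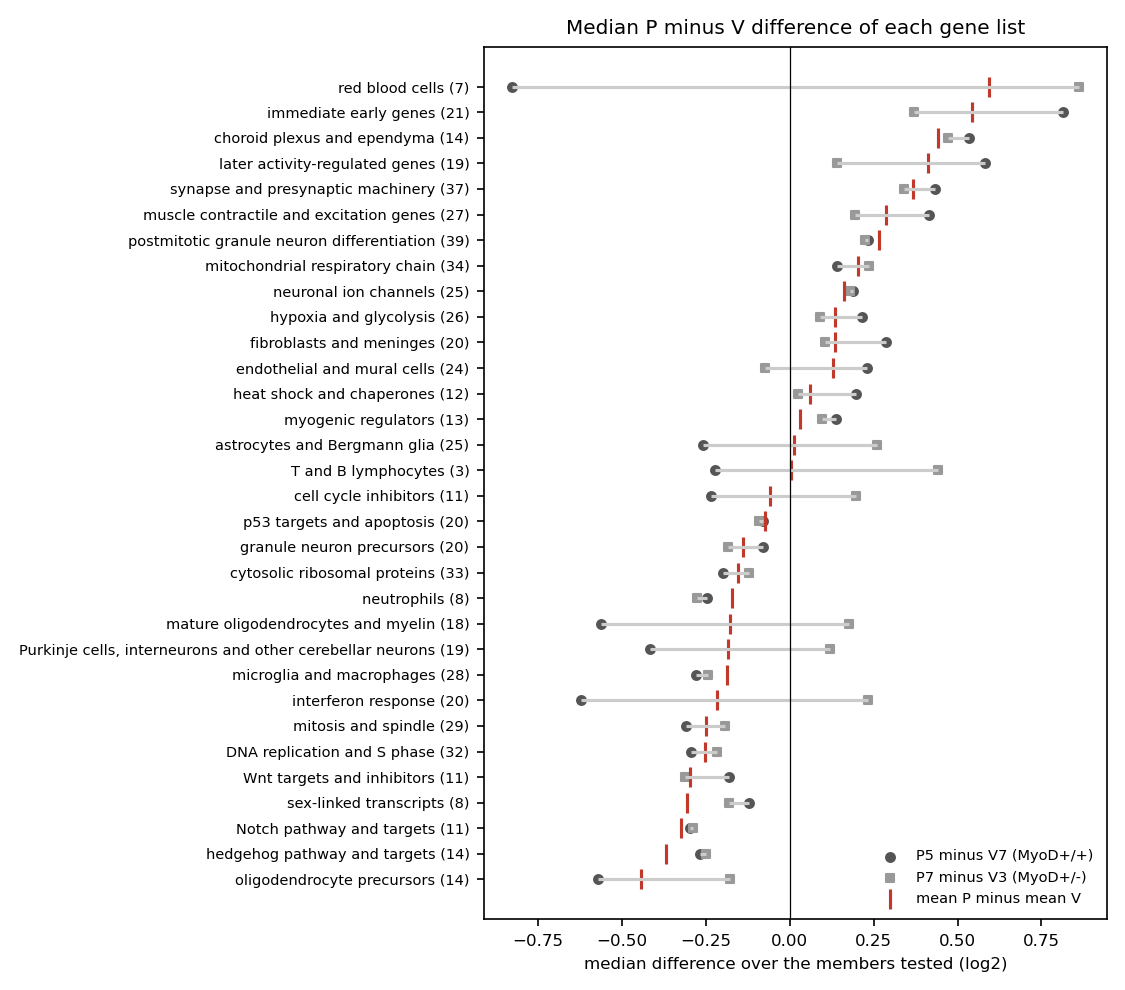
Median difference (log2) over the tested members of each of 32 gene lists, with the number of members in brackets, as P5 minus V7 (circles), P7 minus V3 (squares) and the mean of P minus the mean of V (bars). Immediate early, choroid, later activity and synapse lists lie right of 0 in both genotypes and oligodendrocyte precursor, hedgehog and Notch lists left of it, while the red blood cell list spans 0.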

How the data were processed

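RNA of each tumour was hybridised to 1 array. Per the labels' protocols it was extracted with Trizol and RNeasy columns, DNase-treated and amplified to biotinylated cRNA. The authors deposited a signal intensity per probe that is not normalized, per the file headers, with a detection p-value beside it, per the file headers. The authors' deposited log2 table held quantile-normalized signals without background correction, as found by setting it against the intensities. Scanner and software are not given. The number of arrays limits the precision.

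Of 45281 probes, 34885 had 1 gene symbol in the platform annotation, 18 had several and 10378 were unnamed here. Of these, 34807 matched a RefSeq gene table (0 symbols changed). Background correction and normalization of the 5 arrays used neqc (limma 3.58.1 under R 4.3.3, offset 16). A probe was kept if its detection p was under 0.05 on 2 or more arrays, and the brightest stood for its gene. The letters were compared by lmFit and eBayes (two-sided, 2 residual degrees of freedom, 7.37 after moderation), with Benjamini-Hochberg adjustment over 10474 genes. Every adjusted p in the report is limma's.

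The tumours, the 32 gene lists and the tests were chosen with earlier results of these data known, so the lists carry no test. Named genes are those past the threshold, the 10 of smallest p where fewer than 10 passed, the 6 (activity, proliferation and differentiation lists) or 3 (other lists) members of smallest p, and a fixed set of markers. A gene not detected in either tumour of a letter has only a bound, set by the lowest detected level on each array. Among the tumours compared, such a gene met the detection filter only through the other letter. Alternatives were other corrections, scalings, filters, probe rules and variance models, a genotype block, and the omission of single tumours.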

Additional observations from a re-analysis of the deposited data

Results flagged for a closer look

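Hba-a1 and Pcp2 differed in opposite directions in the MyoD+/+ and MyoD+/- pairs. For Hba-a1, the alpha-globin gene of red blood cells, P minus V was -1.07 in MyoD+/+ (P5 and V7) and 2.26 in MyoD+/- (P7 and V3). For Pcp2, a Purkinje cell marker, it was -1.15 and 0.54. With 1 tumour on each side of each pair, these differences between the genotypes were not tested.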

How the results depend on the processing

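The direction of all 15 differences that passed, and of the medians of the immediate early, later activity, synapse, postmitotic granule neuron, replication and mitosis lists, was the same in each of the 16 other settings, but the counts of genes past the threshold moved. Both with no background correction and with the authors' own processed table, 66 genes were higher in P and 5 in V at an adjusted p under 0.05, with 13 of the 15 kept. With an offset of 50 there were 125 and 9, with the stricter detection filter 63 and 4, and with a mean-variance trend in a robust fit 150 and 16. With median scaling there were 264 and 16, and at an unadjusted p 906 and 109. With no detection filter limma called 0 of 19057 genes, with 905 higher in P and 834 higher in V at an unadjusted p under 0.05, and with genotype as a block it called 0, with 753 and 596. Leaving out each tumour in turn gave 3 to 330 genes higher in P and 0 to 140 higher in V (412 to 924 and 227 to 812 unadjusted). The lone tumour of a letter is then assumed to vary like the other pair.

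The synapse median was 0.26 with the authors' processed table, without background correction and with the mean of a gene's probes, 0.58 with median scaling, 0.21 with no filter, and 0.39 to 0.46 without each tumour. The postmitotic granule neuron median was 0.44 with median scaling, 0.14 with the stricter filter and 0.12 to 0.37 without each tumour. With median scaling the replication, mitosis and precursor medians were -0.068, -0.062 and 0.036, and the precursor median was -0.24 to -0.14 without each tumour. Median scaling turned Mbp to 0.064 and Top2a to 0.029. Without each tumour Mbp ranged from -0.85 to 0.63, Top2a from -0.36 to 0.039, Map2 from -0.067 to 0.068, Cdh5 from -0.11 to 0.18, Pcp2 from -0.74 to 0.14, Eif2s3y from -0.34 to 3.36, Hba-a1 from -0.36 to 1.55, Hbb-bt from -0.50 to 2.02, Xist from -6.43 to 0.057 and Neurod1 from -0.079 to 0.95, each crossing 0. The causes were not tested.

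The fit of all 5 arrays equals that of 4, since the AI tumour adds no spread of its own. A block on slides was not run because the files give no slide. No paired analysis was possible because the letters share only 1 title number, so the tumours were paired by genotype alone, in the block above. With 2 tumours on each side, the letters cannot be told apart from anything else in which these pairs differed.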
